A study of Mus musculus with 6 samples.

Results

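The integrated stress response and the amino acid genes under its control were followed in mouse ear fibroblasts on substrates of different stiffness. The 40 genes were chosen by name: ATF4 (activating transcription factor 4) and its partners, feedback and stress effectors, amino acid transporters, enzymes of serine, folate, asparagine, proline, alanine and cysteine metabolism, and cytosolic tRNA synthetases. All 40 were found among the 57010 gene identifiers of the count table, and all 40 were among the 16093 genes that passed the filter on low counts. The study asked how matrix stiffness bears on the epigenetic state of fibroblasts that are to be turned into neurons. Its RNA came from ear dermal fibroblasts after 3 days on glass, the control, on a 1 kPa gel or on a 20 kPa gel, with 500000 cells per sample and 2 polyadenylated RNA libraries per substrate. The gels were polyacrylamide, an inert hydrogel that is far softer than glass and whose crosslinking sets its stiffness. The labels give no age, strain, genotype or further agent for any group. Whether replicate libraries stem from different mice or dishes is not stated, and the p-values therefore describe the scatter among these libraries, possibly technical.

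The integrated stress response is a switch in protein synthesis. Kinases such as GCN2 (encoded by Eif2ak4), which senses uncharged tRNA, and PERK (Eif2ak3), which senses misfolded protein in the endoplasmic reticulum, phosphorylate the initiation factor eIF2. General translation then falls while translation of ATF4 mRNA rises, and ATF4 protein activates genes for amino acid uptake, amino acid synthesis and tRNA charging. Because ATF4 is controlled largely at translation, the level of its mRNA is not a measure of its activity. ATF4 binds DNA together with C/EBP proteins at a composite site, the C/EBP-ATF response element. In fibroblasts the same enzymes supply glycine and proline for collagen.

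The letters of that element, TGATGNAA with N for any base, were searched for on either strand in the RefSeq promoter windows of build GRCm38.p6, each from 250 bases before to 50 bases after a transcript start. Of 33 members with a window, 9 held a match (27.3%), against 4.51% of the 27025 genes in the table and 3.97% of its 32851 windows. The 9 were Nupr1, Trib3, Chac1, Slc7a11, Slc1a4, Asns, Pycr1, Gars and Aars. The members were chosen as genes of the ATF4 response, so their higher share is not independent of that choice. The stretches shown are those whose match lay wholly before the transcript start, because they let the expression results be read beside the element itself. Capitals mark the match, and a match on the opposite strand reads TTNCATCA. Each stretch ends at or before the base that precedes the transcript start. By the GENCODE M21 bounds, the stretches of Nupr1 and Aars lie inside the gene and that of Asns partly so, while the others lie outside.
Slc7a11 (chr3:50443623-50443709, minus strand): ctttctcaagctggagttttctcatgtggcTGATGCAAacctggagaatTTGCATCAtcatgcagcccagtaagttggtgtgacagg
Nupr1 (chr7:126625543-126625610, minus strand): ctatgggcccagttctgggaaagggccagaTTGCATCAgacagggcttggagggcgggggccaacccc
Chac1 (chr2:119351019-119351086, plus strand): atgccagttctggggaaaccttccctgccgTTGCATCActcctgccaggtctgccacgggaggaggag
Asns (chr6:7693210-7693262, minus strand): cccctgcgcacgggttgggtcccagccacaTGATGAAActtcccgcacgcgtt
Pycr1 (chr11:120643814-120643881, minus strand): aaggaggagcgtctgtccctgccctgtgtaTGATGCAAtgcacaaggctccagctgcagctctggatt
Gars (chr6:55037941-55038000, plus strand): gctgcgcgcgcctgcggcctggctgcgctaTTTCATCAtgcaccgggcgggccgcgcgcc
Aars (chr8:111033700-111033767, plus strand): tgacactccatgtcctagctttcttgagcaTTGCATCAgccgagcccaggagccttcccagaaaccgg
Slc7a11 had 2 matches before its start, facing opposite ways, with their first bases 66 and 47 bases upstream. A match is a description of letters and not evidence of binding. The 9 members with a match did not move one way. On either gel, 4 of them were higher than on glass (Nupr1, Trib3, Slc7a11 and Slc1a4) and 4 were lower (Chac1, Pycr1, Gars and Aars), while Asns passed in neither comparison. Of all tested genes, 23.0% were higher and 22.0% lower on 1 kPa, and 22.3% and 19.6% on 20 kPa. Of the 24 members with a window and no match, 6 were higher and 7 lower on 1 kPa, and 2 were higher and 12 lower on 20 kPa. Bases outside the windows were not searched, so a member without a match may still hold the element elsewhere. Cth, Slc1a5, Slc7a5, Nars, Slc38a1, Eif4ebp1 and Wars had no window.

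Library totals ran from 17669006 to 21350111 counts. Levels are given in CPM, a gene's counts relative to the TMM-scaled library total, and levels of different genes are compared only as CPM per kb of annotated exon. All 14 fibroblast markers passed the filter. Their summed levels were 37717 to 40537 CPM on glass, 52280 to 53426 CPM on 1 kPa and 54137 to 56963 CPM on 20 kPa. Much of that sum was Fn1, named after its value was seen, with a mean of 17415 of 39127 CPM on glass. On 1 kPa 11 markers rose and 2 fell, and on 20 kPa 10 rose and 2 fell. All tested genes had shares of 23.0%, 22.0%, 22.3% and 19.6% in the same order. Log2 fold changes of the markers ran from -0.98 to 4.49 on 1 kPa and from -0.69 to 4.28 on 20 kPa. In bulk RNA, fewer cells of a type and less RNA per cell cannot be told apart. The gene ENSMUSG00000119584.1, which has no symbol here, made up 5.1% of glass replicate 2 and between 0.947% and 2.9% elsewhere. Without glass replicate 2, 27 members passed on 1 kPa and 27 on 20 kPa against glass, where all 6 libraries gave 25 and 27.

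Against glass, the 40 genes moved in both directions on the soft gel and mostly downwards on the stiffer gel. On 1 kPa, 10 rose and 15 fell, where 23.0% of all tested genes were higher, 22.0% were lower and 45.0% passed in either direction (edgeR quasi-likelihood test, Benjamini-Hochberg adjusted p below 0.05 over all tested genes). The risers were 25.0% and the fallers 37.5% of the members. On 20 kPa, 6 rose and 21 fell, the latter 52.5% of the members, where 22.3% of all tested genes were higher and 19.6% lower (41.8% either way). The median log2 fold change of the members was -0.09 on 1 kPa and -0.20 on 20 kPa, and that of all tested genes was 0.00 and 0.02. The libraries of the compared groups did not overlap for 31 members on 1 kPa (77.5%, against 71.0% of all tested genes) and for 32 on 20 kPa (against 67.5%). The 2 comparisons share the glass libraries. Over the 3 groups together, 30 of the 40 passed, beside 51.2% of all tested genes. Between the gels, 13 members were lower on 20 kPa than on 1 kPa and 0 were higher, where 9.92% and 8.94% of all tested genes (18.9% in all) were lower and higher. The gels did not overlap for 26 members (65.0%, against 60.1% of all tested genes). By total counts in place of TMM, 10 members were lower and 2 higher between the gels, and the share of higher calls among all genes called moved from 47.4% to 60.8%. DESeq2 called 10 lower and 0 higher. With the 4 gel libraries fitted alone, 13 were lower and 3 higher (Pycr1, Sars and Slc3a2), and without either glass library 14 were lower and the same 3 higher. Without 20 kPa replicate 2, 8 were lower and 0 higher.

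**Figure D1:**
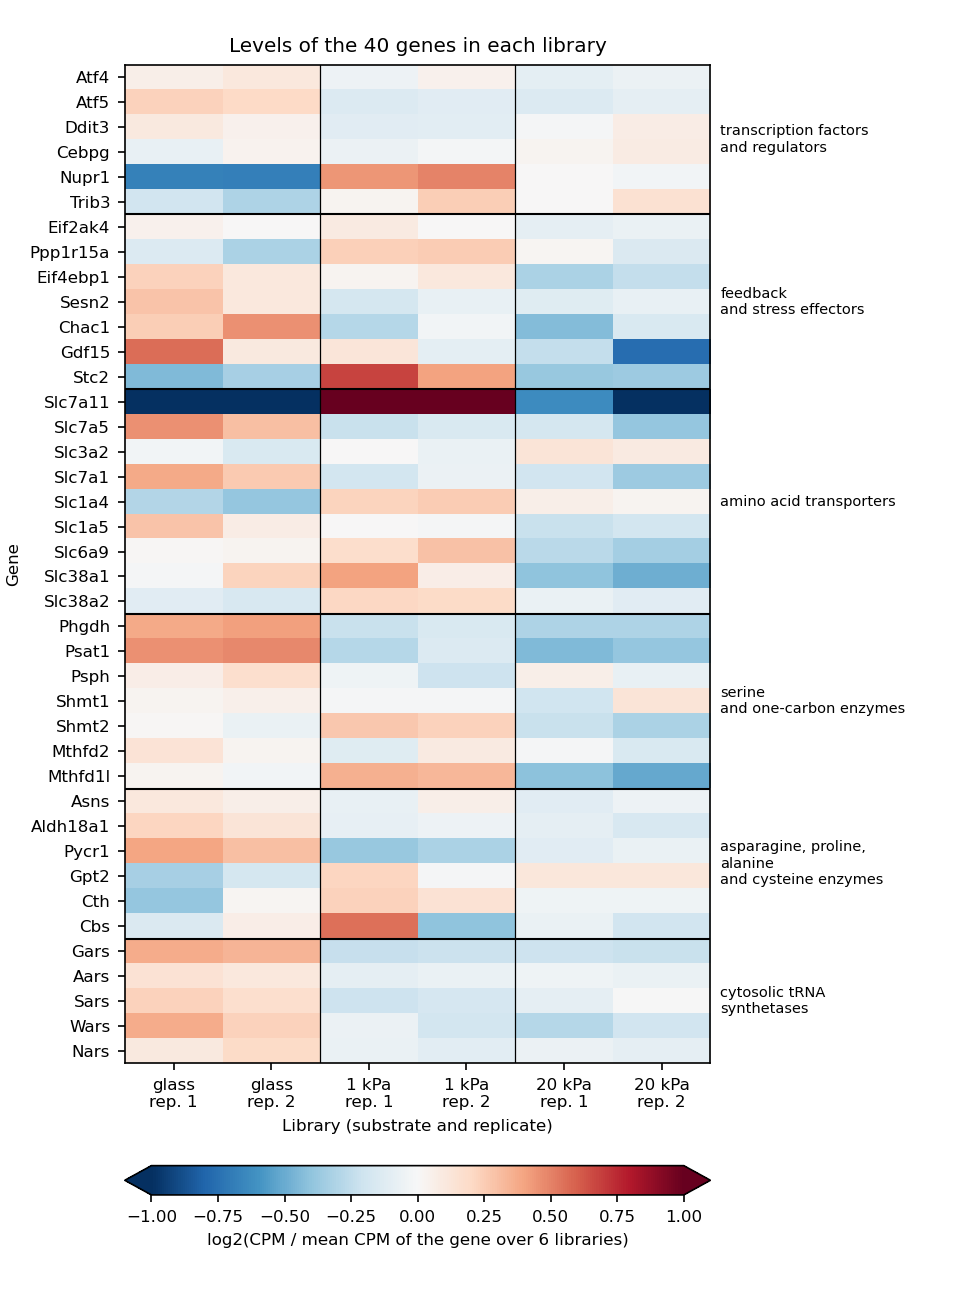
Heat map of the 40 genes (rows, grouped by role) in the 6 libraries (columns), coloured by the log2 ratio of the CPM in a library to the mean CPM of that gene over the 6 libraries, with the colour scale ending at 1 in either direction. Slc7a11 and Nupr1 were highest in the 1 kPa libraries, Phgdh, Psat1 and the tRNA synthetase genes were highest in the glass libraries, and Mthfd1l was lowest in the 20 kPa libraries.

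Of the 6 transcription factors and regulators, Nupr1 and Trib3 were the ones that rose on either gel. Nupr1 (chromosome 7, 126623249 to 126630861, minus strand, GRCm38), a small stress-induced chromatin protein, had 22.6 and 22.5 CPM on glass, 48.9 and 50.9 CPM on 1 kPa, and 36.2 and 35.5 CPM on 20 kPa. The 3 groups did not overlap, and the 20 kPa libraries lay between the others. The rise was 2.21-fold on 1 kPa (log2 fold change 1.15, SE 0.08, edgeR adjusted p = 7.7e-13) and 1.59-fold on 20 kPa (0.67, SE 0.08, edgeR adjusted p = 1.0e-07), and 20 kPa was lower than 1 kPa (-0.48, SE 0.08, edgeR adjusted p = 2.7e-05). Trib3, a pseudokinase that ATF4 induces and that restrains ATF4 in return, had 23 and 21.3 CPM on glass, 26.9 and 31.2 CPM on 1 kPa, and 26.4 and 29.2 CPM on 20 kPa. Either gel lay above glass, by 0.38 (SE 0.10) and 0.32 (SE 0.10) on the log2 scale, while the gels overlapped. These calls were lost without 1 kPa replicate 2 (edgeR adjusted p = 0.081) and without 20 kPa replicate 2 (edgeR adjusted p = 0.11).

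The mRNA of Atf4 itself differed little. It had 243 and 251 CPM on glass, 226 and 240.5 CPM on 1 kPa, and 219 and 224 CPM on 20 kPa. The log2 fold change on 1 kPa was -0.08 (95% interval -0.20 to 0.04), and the fall on 20 kPa was -0.16 (SE 0.06, edgeR adjusted p = 0.028). That call was lost by total counts (0.15) and without any library but glass replicate 1 (edgeR adjusted p = 0.057 to 0.19). Atf5, a related factor that is also controlled at translation, fell from 314 and 307 CPM on glass to 243 and 248 CPM on 1 kPa and 243 and 252 CPM on 20 kPa (-0.34 and -0.33, SE 0.06 each). The gels overlapped for Atf5. Ddit3, which encodes CHOP, the factor linked to cell death under lasting stress, had 28.8 and 27.6 CPM on glass, 24.8 and 25 CPM on 1 kPa, and 26.7 and 28.2 CPM on 20 kPa. It passed in no comparison, with intervals of -0.36 to 0.00 on 1 kPa and -0.22 to 0.14 on 20 kPa. Of its exonic length, 10.9% is overlapped by other genes, among them Mars. Cebpg, a dimer partner of ATF4, had log2 fold changes of -0.02 (interval -0.17 to 0.13) on 1 kPa and 0.07 (-0.07 to 0.22) on 20 kPa.

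Among the 7 feedback and stress effectors, Ppp1r15a and Stc2 rose on 1 kPa, and 4 genes fell on 20 kPa. The risers on 1 kPa were 28.6% of the list, near the 23.0% of all tested genes. The fallers on 20 kPa were 57.1%, where 19.6% of all tested genes were lower. Stc2, a secreted stanniocalcin glycoprotein, had 8.88 and 9.57 CPM on glass, 19.3 and 16 CPM on 1 kPa, and 9.31 and 9.40 CPM on 20 kPa. The 1 kPa libraries stood above all others, and 20 kPa overlapped glass. The rise on 1 kPa was 1.93-fold (log2 fold change 0.95, SE 0.13, edgeR adjusted p = 2.8e-07), and 20 kPa lay below 1 kPa by -0.92 (SE 0.12, edgeR adjusted p = 1.4e-06). Ppp1r15a encodes GADD34, the phosphatase subunit that reverses eIF2 phosphorylation. It had 37.1 and 32.8 CPM on glass, 48.2 and 48.6 CPM on 1 kPa, and 41.4 and 37 CPM on 20 kPa, a rise of 0.47 (SE 0.08) on 1 kPa. Its difference between the gels (-0.31, SE 0.08) was lost without 1 kPa replicate 1, 1 kPa replicate 2 or 20 kPa replicate 2 (edgeR adjusted p = 0.056 to 0.17).

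Chac1, Sesn2, Gdf15 and Eif4ebp1 went the other way. Chac1, which degrades glutathione and is a sensitive ATF4 and CHOP target, had 17 and 19.7 CPM on glass, 11.8 and 14.1 CPM on 1 kPa, and 10.6 and 12.9 CPM on 20 kPa. It fell by 0.50 (SE 0.12) on 1 kPa and by 0.64 (SE 0.12) on 20 kPa on the log2 scale. Sesn2, a leucine sensor that restrains the growth kinase complex mTORC1, fell by 0.32 (SE 0.08) on 1 kPa and by 0.30 (SE 0.08) on 20 kPa, the latter not without glass replicate 1 (edgeR adjusted p = 0.056). Gdf15, a secreted stress cytokine, had 9.62 and 7.02 CPM on glass, 7.11 and 6.11 CPM on 1 kPa, and 5.56 and 3.87 CPM on 20 kPa. It fell on 20 kPa by 0.83 (SE 0.18, edgeR adjusted p = 4.7e-04), while 1 kPa overlapped glass. Eif4ebp1, the repressor of cap-dependent translation, had 82.6 and 75.5 CPM on glass, 71.6 and 75.7 CPM on 1 kPa, and 56.5 and 59.6 CPM on 20 kPa. It fell on 20 kPa against glass (-0.45, SE 0.07) and against 1 kPa (-0.34, SE 0.07). Eif2ak4, the kinase GCN2, passed in no comparison, with intervals of -0.14 to 0.19 on 1 kPa and -0.27 to 0.07 on 20 kPa.

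Among the 9 amino acid transporters, the cystine carrier Slc7a11 changed most and the general neutral amino acid carriers split. Slc7a11 encodes xCT, which imports cystine in exchange for glutamate. The gene spans 49892526 to 50443614 of chromosome 3, minus strand. It had 2.73 and 3.42 CPM on glass, 17.5 and 18.9 CPM on 1 kPa, and 5.65 and 4.36 CPM on 20 kPa, from 59 counts in either glass library to 360 and 337 counts on 1 kPa. The 3 groups did not overlap. The rise was 5.97-fold on 1 kPa (log2 fold change 2.58, SE 0.16, edgeR adjusted p = 4.1e-14) and 1.64-fold on 20 kPa (0.72, SE 0.19, edgeR adjusted p = 0.0033), and the gels differed by -1.86 (SE 0.15, edgeR adjusted p = 4.1e-11). The 20 kPa call was lost without glass replicate 1 (edgeR adjusted p = 0.061) or without 20 kPa replicate 1 (0.089), and the others held in every alternative run.

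Slc7a11 and Slc7a5 are light chains that share the heavy chain encoded by Slc3a2, and they moved in opposite directions. Slc7a5, which encodes the leucine carrier LAT1, fell from 72.4 and 65 CPM on glass to 45.3 and 47.5 CPM on 1 kPa and 46.7 and 40.4 CPM on 20 kPa (-0.57 and -0.66, SE 0.08 each). Slc3a2 had 170.3 and 156 CPM on glass, 174 and 166 CPM on 1 kPa, and 190.2 and 185 CPM on 20 kPa. It rose slightly on 20 kPa (0.20, SE 0.06, edgeR adjusted p = 0.0066), a call lost without 20 kPa replicate 1 (0.076), and overlapped glass on 1 kPa (interval -0.06 to 0.18). Per kb of exon, the ratio of Slc7a11 to Slc7a5 was 0.012 on glass, 0.105 on 1 kPa and 0.0305 on 20 kPa (means of 2 libraries, SD 0.0028, 0.0019 and 0.0025). Slc7a11 thus stayed far below its fellow light chain on every substrate. Slc7a11 has 13922 bases of annotated exon, which lowers its value per kb if most transcripts are shorter.

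The other transporters divided by gene. Slc1a4 (ASCT1) carries serine, alanine and cysteine. It had 57.9 and 54.2 CPM on glass, 82.6 and 84.3 CPM on 1 kPa, and 73.5 and 72 CPM on 20 kPa, and rose on either gel (0.57 and 0.37, SE 0.07 each). Slc1a5 (ASCT2), the related glutamine carrier, went down instead, from 117 and 101 CPM on glass to 96 and 95.1 CPM on 1 kPa and 82.1 and 84.7 CPM on 20 kPa (-0.19 and -0.39, SE 0.07 each). Its fall on 1 kPa was lost with DESeq2 (adjusted p = 0.061) and without glass replicate 1, 1 kPa replicate 1 or 1 kPa replicate 2 (edgeR adjusted p = 0.095 to 0.37). Differences between the gels for these 2 genes (-0.20, SE 0.07 each) were lost with DESeq2 (adjusted p = 0.066 and 0.092), by total counts, with no filter and without any of the 4 gel libraries. Slc38a2 (SNAT2), whose mRNA rises when amino acids are scarce, had 498 and 482 CPM on glass, 621 and 614 CPM on 1 kPa, and 513 and 496 CPM on 20 kPa. It rose on 1 kPa (0.33, SE 0.06) and overlapped glass on 20 kPa. Slc7a1, the arginine carrier CAT1, fell on 1 kPa and 20 kPa (-0.44 and -0.60, SE 0.07 each), from 80.2 and 74.1 CPM on glass to between 47.8 and 59.3 CPM. Slc6a9, the glycine carrier GlyT1, was lower on 20 kPa than on 1 kPa (-0.54, SE 0.09) and than on glass (-0.32, SE 0.09), the latter not without 20 kPa replicate 2 (edgeR adjusted p = 0.065). Of its exonic length 30.2% is overlapped by other genes, so its counts are uncertain. Slc38a1 (SNAT1) had at most 4.68 CPM in a library and was lower on 20 kPa than on 1 kPa (-0.69, SE 0.22), a call lost with DESeq2 (adjusted p = 0.12) and without 1 kPa replicate 1, 20 kPa replicate 1 or 20 kPa replicate 2 (edgeR adjusted p = 0.1 to 0.3).

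**Figure D2:**
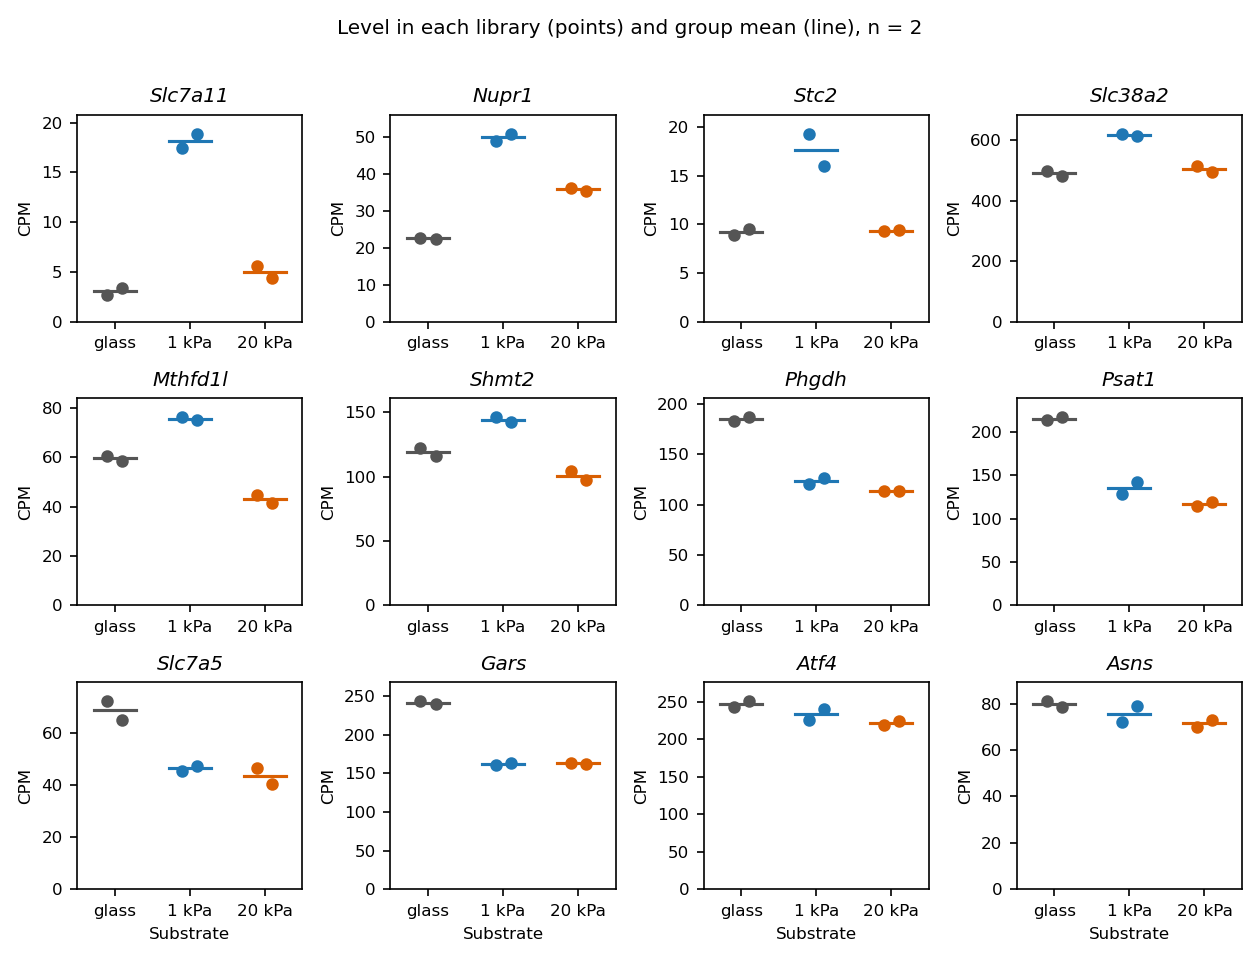
CPM of 12 of the genes in each library (points) by substrate, with the mean of the 2 libraries as a line and each axis starting at 0. Slc7a11 reached 17.5 and 18.9 CPM on 1 kPa, Phgdh, Psat1, Slc7a5 and Gars were lower on either gel than on glass, and Shmt2 and Mthfd1l were highest on 1 kPa and lowest on 20 kPa.

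Of the 7 serine and one-carbon enzymes, 2 rose and 2 fell on 1 kPa, and 0 rose and 4 fell on 20 kPa. On 1 kPa 28.6% of the list rose and 28.6% fell, near the 23.0% and 22.0% of all tested genes. The fallers on 20 kPa were 57.1%, where 19.6% of all tested genes were lower. Phgdh, the first enzyme from glycolysis to serine, had 183 and 187 CPM on glass, 121 and 127 CPM on 1 kPa, and 114 and 114 CPM on 20 kPa. It fell by 0.58 (SE 0.06, edgeR adjusted p = 1.3e-09) on 1 kPa and by 0.70 (SE 0.06, edgeR adjusted p = 3.0e-11) on 20 kPa. Psat1, the aminotransferase that follows it, had 214 and 217 CPM on glass, 128 and 142 CPM on 1 kPa, and 115 and 119 CPM on 20 kPa. The glass libraries stood above all others, and Psat1 fell by 0.67 (SE 0.06, edgeR adjusted p = 9.1e-11) and by 0.88 (SE 0.06, edgeR adjusted p = 3.2e-13). Its difference between the gels (-0.20, SE 0.06) was lost by total counts (0.11) and without 1 kPa replicate 2 or either 20 kPa library (edgeR adjusted p = 0.078 to 0.4). Psph, the phosphatase of the last step, ran from 17.1 to 22.2 CPM and did not pass, with intervals of -0.44 to -0.02 on 1 kPa (edgeR adjusted p = 0.067) and -0.33 to 0.08 on 20 kPa. Cct6a overlaps 10.4% of its exonic length.

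Shmt2 and Mthfd1l were the 2 members with opposite calls on the gels. Shmt2, the mitochondrial enzyme that splits serine into glycine and a folate-bound carbon, had 122 and 116 CPM on glass, 146 and 142 CPM on 1 kPa, and 104 and 97.3 CPM on 20 kPa. Mthfd1l, the mitochondrial step that releases that carbon as formate, had 60.7 and 58.4 CPM on glass, 76.2 and 74.9 CPM on 1 kPa, and 44.7 and 41.6 CPM on 20 kPa. In either gene the 3 groups did not overlap, with 1 kPa highest and 20 kPa lowest. Shmt2 rose by 0.27 (SE 0.06, edgeR adjusted p = 5.3e-04) on 1 kPa and fell by 0.24 (SE 0.06, edgeR adjusted p = 0.0018) on 20 kPa, the latter not without 20 kPa replicate 2 (0.068). Mthfd1l rose by 0.34 (SE 0.07, edgeR adjusted p = 1.3e-04) and fell by 0.47 (SE 0.07, edgeR adjusted p = 3.3e-06). The gels differed by -0.51 (SE 0.06, edgeR adjusted p = 1.5e-07) for Shmt2 and by -0.81 (SE 0.07, edgeR adjusted p = 3.3e-10) for Mthfd1l, calls that held in every alternative run. Mthfd2, which works between them and is often induced with them, ran from 42.1 to 51.3 CPM and passed in no comparison, with intervals of -0.26 to 0.07 on 1 kPa and -0.33 to 0.00 on 20 kPa. Shmt1, the cytosolic counterpart of Shmt2, ran from 10.3 to 12.9 CPM and did not pass either (intervals -0.31 to 0.22 and -0.32 to 0.20). Per kb of exon, Shmt2 stood at 12.3 times Shmt1 on glass, 15.3 times on 1 kPa and 11 times on 20 kPa, and Shmt2 at 0.757 times Psat1 on glass, 1.46 times on 1 kPa and 1.18 times on 20 kPa.

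Among the 6 other amino acid enzymes, proline synthesis genes fell on either gel and Gpt2 rose. Pycr1, the last enzyme of proline synthesis, had 28.5 and 26.8 CPM on glass, 16.7 and 17.4 CPM on 1 kPa, and 20.1 and 20.7 CPM on 20 kPa. It was lowest on 1 kPa, with falls of 0.70 (SE 0.10, edgeR adjusted p = 3.9e-07) and 0.44 (SE 0.09, edgeR adjusted p = 2.5e-04). Between the gels, 20 kPa lay 0.26 above 1 kPa (interval 0.06 to 0.46) and did not pass (edgeR adjusted p = 0.06). Aldh18a1, which begins that pathway from glutamate, fell by 0.24 (SE 0.06) and 0.29 (SE 0.06). Gpt2, the mitochondrial alanine aminotransferase, had 13.5 and 15 CPM on glass, 19.7 and 16.8 CPM on 1 kPa, and 18.4 and 18.4 CPM on 20 kPa, a rise of 0.37 (SE 0.11) and 0.38 (SE 0.11). These calls were lost without glass replicate 1 (edgeR adjusted p = 0.083 and 0.077), the first also without 1 kPa replicate 1 (0.2). Asns, asparagine synthetase and a standard ATF4 reporter, had 81.3 and 78.7 CPM on glass, 72 and 78.9 CPM on 1 kPa, and 70 and 73.2 CPM on 20 kPa. It passed in no comparison, with intervals of -0.22 to 0.05 on 1 kPa and -0.30 to -0.02 on 20 kPa (edgeR adjusted p = 0.053), though it passed on 20 kPa without glass replicate 2 (0.041). Cth and Cbs, the enzymes that make cysteine from methionine, were low, at 4.39 to 6.72 CPM and 0.504 to 0.975 CPM, and did not pass. Their intervals were wide, -0.78 to 1.22 for Cbs on 1 kPa, with 9 to 20 counts per library.

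All 5 cytosolic tRNA synthetases of the list fell on 1 kPa and on 20 kPa, where 22.0% and 19.6% of all tested genes were lower. These enzymes attach amino acids to their tRNAs. Gars, the glycine enzyme, had 244 and 239.6 CPM on glass, 161 and 163 CPM on 1 kPa, and 164 and 162 CPM on 20 kPa. The gels were nearly level, and Gars fell by 0.57 on either (SE 0.06 each, edgeR adjusted p = 6.9e-10 and 9.7e-10). Wars, the tryptophan enzyme, had 77.5 and 70.2 CPM on glass, 57.7 and 52.8 CPM on 1 kPa, and 49.3 and 52.4 CPM on 20 kPa (-0.42 and -0.54, SE 0.07 each). Sars, the serine enzyme, fell by 0.38 and 0.25, Aars, the alanine enzyme, by 0.21 and 0.18, and Nars, the asparagine enzyme, by 0.23 and 0.22 (SE 0.06 each). Other genes overlap 15.1% of the exonic length of Aars, so its counts are less certain. The call of Aars was lost on 1 kPa without 1 kPa replicate 1 (edgeR adjusted p = 0.069) and on 20 kPa by total counts and without either 20 kPa library (0.055 to 0.079), and that of Nars on 1 kPa without 1 kPa replicate 2 (0.05). None of the 5 passed between the gels by edgeR or DESeq2, and Sars did so with the gel libraries alone (0.14 higher on 20 kPa, edgeR adjusted p = 0.033).

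Of the 15 other cytosolic synthetases, 10 fell and 0 rose on 1 kPa (median log2 fold change -0.20), and 11 fell and 0 rose on 20 kPa (median -0.22). The genes that fell were 66.7% and 73.3% of the list, where 22.0% and 19.6% of all tested genes were lower. Cars, the cysteine enzyme, fell on 1 kPa and 20 kPa (-0.38 and -0.47), as did Eprs, which charges glutamate and proline (-0.31 and -0.27), and Qars, the glutamine enzyme (-0.21 and -0.30). Vars, the valine enzyme, was lower on 20 kPa than on glass (-0.30) and than on 1 kPa (-0.25). Of the 17 mitochondrial synthetases, 1 rose (Aars2) and 1 fell (Iars2) on 1 kPa (median 0.03), and 1 rose (Ears2, named after its value was seen) and 2 fell (Iars2 and Lars2) on 20 kPa (median -0.08). Those that passed were 11.8% and 17.6% of the list, where 45.0% and 41.8% of all tested genes passed in either direction. Lars2 varied widely within a substrate, with 1104 and 3336 CPM on glass, 2193 and 1069 CPM on 1 kPa, and 704 and 1061 CPM on 20 kPa, and it was highest in the libraries where the gene with no symbol was highest. Its part in that result was not tested.

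**Figure D3:**
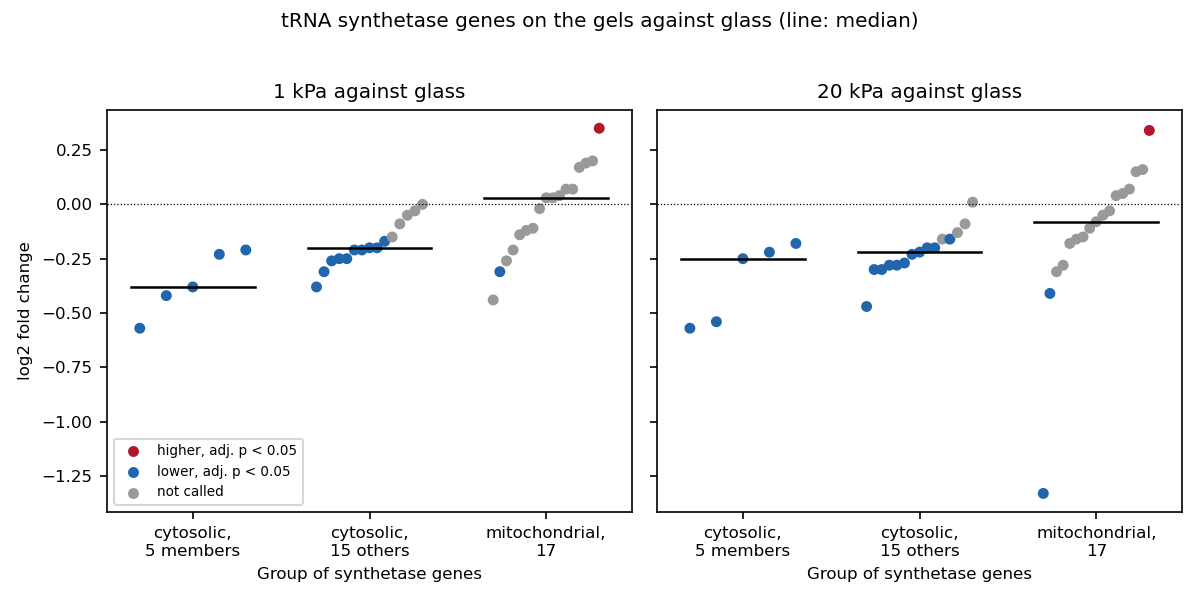
log2 fold changes of tRNA synthetase genes on 1 kPa (left) and 20 kPa (right) against glass, one point per gene, for the 5 cytosolic members, the 15 other cytosolic genes and 17 mitochondrial genes, with the median of each group as a line and called genes coloured. The cytosolic medians were -0.38 and -0.20 on 1 kPa and -0.25 and -0.22 on 20 kPa, and the mitochondrial medians were 0.03 and -0.08.

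Upstream of ATF4, the eIF2 kinases did not pass in any comparison. Per kb of exon their means over the 6 libraries were 9.08 for Eif2ak1, 9.69 for Eif2ak2, 8.3 for Eif2ak3 and 4.47 for Eif2ak4. Among the 15 genes of the eIF2 pathway list, 2 rose and 4 fell on 1 kPa, and 0 rose and 4 fell on 20 kPa. The genes that fell were 26.7% of the list on either gel, near the 22.0% and 19.6% of all tested genes. Eif2s3x, the gamma subunit of eIF2, fell by 0.55 and 0.49, and Eif2s1, the subunit that the kinases phosphorylate, by 0.40 and 0.26. Among the 12 genes measured of the other unfolded protein response arms, 2 rose and 5 fell on 1 kPa and 2 rose and 7 fell on 20 kPa. These were 16.7%, 41.7%, 16.7% and 58.3% of the list, beside 23.0%, 22.0%, 22.3% and 19.6% of all tested genes. Edem1 and Herpud1, which serve disposal of misfolded proteins, fell (-0.50 and -0.62 for Edem1, -0.37 and -0.50 for Herpud1), while the sensor kinase gene Ern1 rose (0.53 and 0.27).

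Other genes that ATF4 can induce moved in both directions. Of 12 measured, 5 rose and 3 fell on 1 kPa, and 2 rose and 3 fell on 20 kPa. These were 41.7%, 25.0%, 16.7% and 25.0% of the list, beside 23.0%, 22.0%, 22.3% and 19.6% of all tested genes. The shares on 20 kPa were thus near those of all tested genes. Ddit4, an mTORC1 inhibitor that also answers to hypoxia and glucocorticoids, had 68.1 and 75.3 CPM on glass, 192 and 186 CPM on 1 kPa, and 124 and 130.3 CPM on 20 kPa (1.40 and 0.83). Cebpb, a DNA-binding partner of ATF4 with wide roles in inflammation, rose by 1.02 and 0.49, and the lipoprotein receptor Vldlr by 0.94 on 1 kPa. Tnfrsf10b, a death receptor, fell by 0.75 and 0.82.

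Amino acid genes outside the 40 also divided. Of 21 other transporters, 9 rose and 2 fell on 1 kPa, and 7 rose and 5 fell on 20 kPa. Their shares were 42.9%, 9.52%, 33.3% and 23.8% of the list, beside 23.0%, 22.0%, 22.3% and 19.6% of all tested genes. Slc7a2, an inducible arginine carrier, had 20.4 and 20.5 CPM on glass, 184 and 191 CPM on 1 kPa, and 70.2 and 58.6 CPM on 20 kPa (3.20 and 1.66), opposite to the fall of Slc7a1, its constitutive relative. The glutamate carrier Slc1a3 rose by 1.23 and 1.34, and Slc43a2, a neutral amino acid carrier, by 1.22 and 0.82. Of 20 measured enzymes of glutamate, branched-chain, proline and arginine metabolism, 3 rose and 10 fell on 1 kPa, and 3 rose and 6 fell on 20 kPa. Glul, which makes glutamine, rose by 0.86 and 0.72. Of 20 other folate and methionine cycle genes, 3 rose and 5 fell on 1 kPa, and 3 rose and 8 fell on 20 kPa. Mthfd1, the cytosolic counterpart of Mthfd1l, fell by 0.57 and 0.48, and Ahcy, which clears the product of methylation reactions, by 0.67 and 0.52. Per kb of exon, the ratio of Mthfd1l to Mthfd1 was 0.578 and 0.565 in the glass libraries, 1.12 and 1.03 on 1 kPa, and 0.566 and 0.596 on 20 kPa. The 1 kPa libraries stood apart in that ratio, while 20 kPa overlapped glass. Of 7 genes of glutathione synthesis and use, 3 rose (Ggt5, Gsr and Gclc) and 1 fell (Gpx4) on 1 kPa, 42.9% and 14.3% of the list. On 20 kPa 1 rose (Ggt5) and 1 fell (Gclm, named after its value was seen), 14.3% each. Gsr, glutathione reductase, rose by 0.53 on 1 kPa and had a log2 fold change of 0.01 on 20 kPa. Of all 139 measured genes of these 9 lists, 28 rose and 41 fell on 1 kPa and 19 rose and 47 fell on 20 kPa, shares of 20.1%, 29.5%, 13.7% and 33.8%. The shares of all tested genes were 23.0%, 22.0%, 22.3% and 19.6% in the same order.

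**Figure D4:**
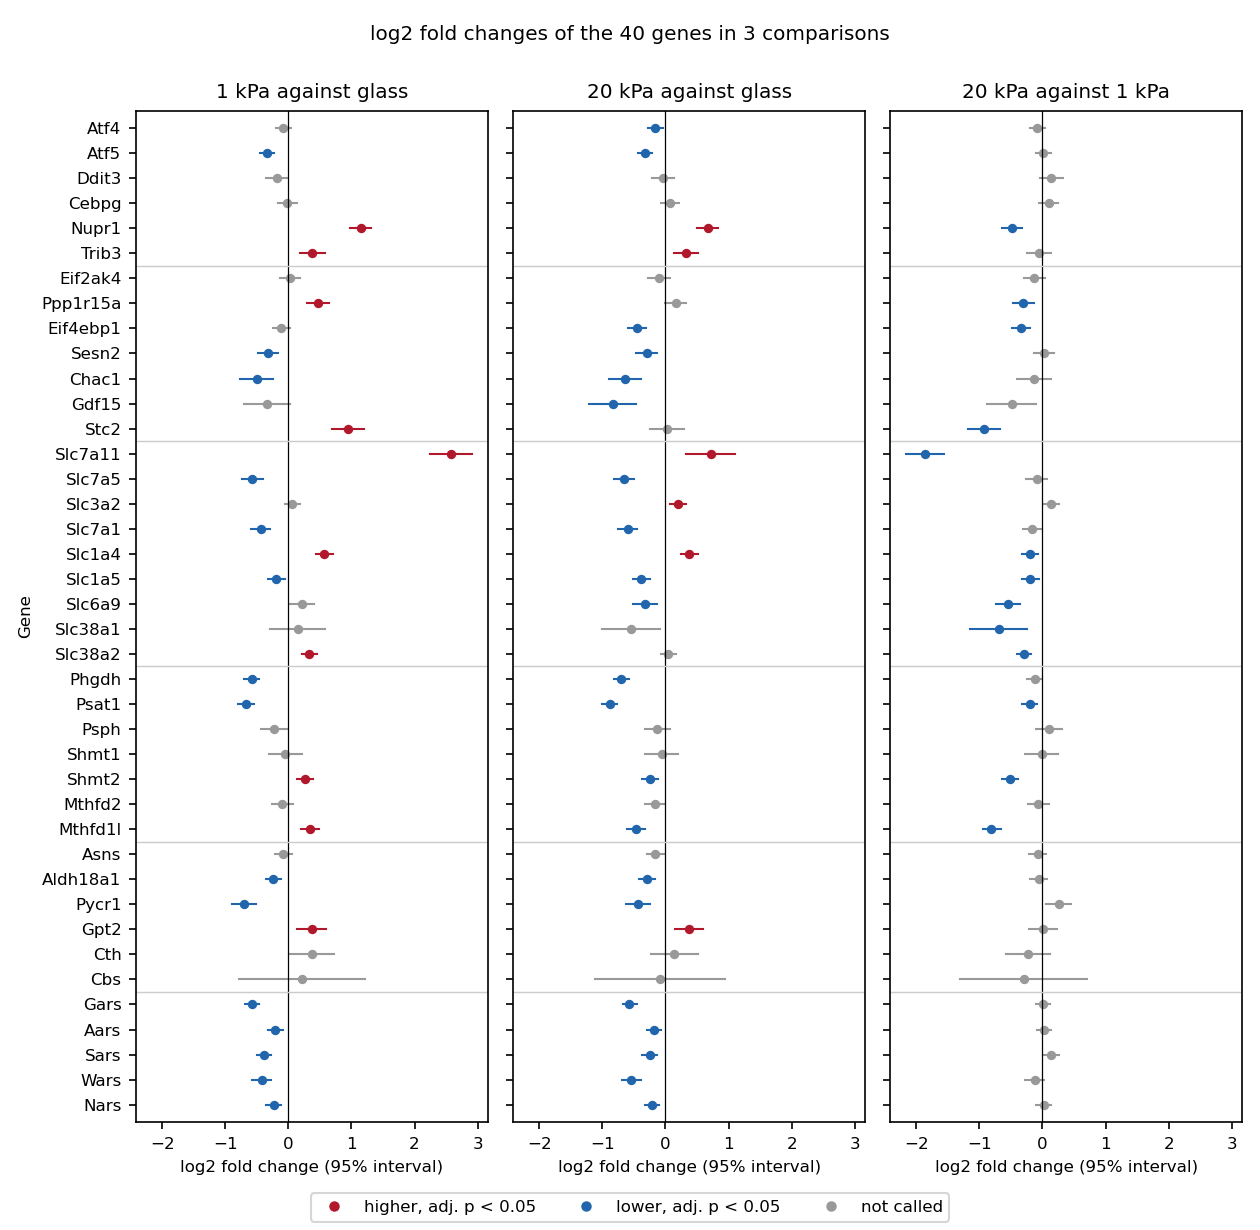
log2 fold changes (points) with 95% intervals (lines) of the 40 genes in the comparisons of 1 kPa with glass, 20 kPa with glass and 20 kPa with 1 kPa, on 1 common axis, coloured by direction where the adjusted p was below 0.05. In the third panel 13 genes lay lower on 20 kPa and 0 were called higher.

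Some markers of other cells also passed between the same groups. The counts stand beside 23.0% of all tested genes higher and 22.0% lower on 1 kPa, and 22.3% and 19.6% on 20 kPa. Of 9 macrophage and leukocyte markers, 6 passed the filter, and their summed level was 17.1 to 18.3 CPM on glass, 56.6 to 56.8 CPM on 1 kPa and 25.2 to 29 CPM on 20 kPa. Most of that rise was Cd14, at 5.59 and 4.93, 41.3 and 43.8, and 15.1 and 13.1 CPM on glass, 1 kPa and 20 kPa, the same order of substrates as Slc7a11 and Slc7a2. On 1 kPa 2 of the 6 rose (Cd14 and Lyz2), and on 20 kPa the same 2 rose and Csf1r fell. Lyz2 rose by 0.99 and 0.74, Csf1r fell by 0.89 on 20 kPa, and Cd68 stood at 3.65 to 4.53 CPM in all libraries and did not pass. The defining leukocyte gene Ptprc was at 0.29 CPM or less in every library, Itgam at 0.056 CPM or less and Tyrobp at 0.341 CPM or less. Of 7 chondrocyte markers measured, 5 rose and 1 fell on 1 kPa and 6 rose and 1 fell on 20 kPa, with sums of 553 to 587, 840 to 862 and 1426 to 1483 CPM. Of 5 keratinocyte markers measured, 1 rose and 3 fell on either gel (sums of 18.7 to 28.4 CPM over all libraries, with Krt1 and Krt15 at 3 counts or fewer). Of 8 endothelial markers, 4 rose and 1 fell on 1 kPa and 6 rose on 20 kPa, with sums of 57.2 to 88.8 CPM. Of 5 skeletal muscle markers measured, 4 and 3 rose, with sums of 12.9 to 33.2 CPM, and Pax7 was at 0. The part of these cells in the results on the 40 genes was not tested.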

How the data were processed

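RNA of 6 libraries was analysed, 2 each from glass, 1 kPa and 20 kPa, grouped by sample title. The authors deposited whole-number counts per gene with no normalisation. Per the submitters' processing notes, reads went through Trim Galore and cutadapt, STAR 2.7.10b and featureCounts on mm10. No source used here gives their settings, annotation or strand use, which leaves overlapping genes and near-identical copies uncertain. Identifiers were matched to GENCODE M21 (GRCm38, 91.3% matched), from which symbols, positions and exon lengths were taken. A second identifier with the symbol Ddit3 had 0 counts and was not used.

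Genes were filtered with filterByExpr (edgeR 4.0.16, R 4.3.3), scaled by TMM and fitted with glmQLFit and glmQLFTest on all 6 libraries with group as the only term, leaving 3 residual degrees of freedom and a common biological coefficient of variation of 4.98%. Adjusted p-values of the main fit are Benjamini-Hochberg over all 16093 tested genes, with a threshold of 0.05. Each alternative edgeR fit was adjusted over its own tested genes, from 13712 with the stricter filter to 30813 with no filter. DESeq2 used its own adjustment. SE is the size of the log2 fold change over the root of its F statistic, and 95% intervals use the t quantile of the same fit. Both describe single genes without correction for the number of genes. The scripts were tested on simulated data.

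The members and gene lists were chosen with earlier results of these data known. All members could be named, and of each other list the 4 genes with the smallest p over the 3 groups. A gene that this rule would name is not reported here. By library totals before TMM scaling, 3 counts correspond to 0.141 to 0.17 CPM. Intervals cover no error beyond these libraries. The alternatives were DESeq2 1.42.0, total counts, no filter, a stricter filter, the 2 compared groups only, a replicate block and leaving out each library.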

Additional observations from a re-analysis of the deposited data

How the results depend on the processing

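Of the 65 calls of members over the 3 comparisons, 46 held in every alternative and 19 were lost in 1 or more, and none changed sign. The number of members that passed stayed within 1.5 times except for 20 kPa against 1 kPa, where it was 13 and ranged from 8 to 17 when 1 library was left out, lowest without 20 kPa replicate 2. In that comparison, all genes called numbered 3035, against 2022 with DESeq2 and 1680 to 3824 without 1 library, and the other genes of the pathway lists numbered 33, against 20 with DESeq2, 50 with the 2 gels alone and 16 to 49 without 1 library. All genes called numbered 3824 and 3807 without glass replicate 1 or 2, and 1680 to 1910 without a gel library. Fits with fewer libraries thus gave higher as well as lower counts than the main fit. The cause of these shifts was not tested. Replicate numbers are shared between groups in the labels, but same-numbered libraries did not deviate together (correlations of -0.0347, -0.0158 and -0.0338 across genes). With the number as a replicate block, 25, 27 and 13 members passed in the 3 comparisons, as without it; between the gels Gdf15 passed (edgeR adjusted p = 0.044) and Slc1a5 did not (0.053). Depth limits the low members most: Cbs, at 9 to 20 counts per library, had a 95% interval of -0.78 to 1.22 on 1 kPa against glass.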
